A study of Mus musculus with 4 samples.

Results

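The 10 genes described here mark or act in primitive endoderm, the first endoderm layer of the mouse embryo, in R1 mouse embryonic stem (ES) cells, an established line, after knockdown of Brg1. They were chosen by platform gene symbol: Gata4, Gata6, Sox17, Sox7, Pdgfra, Dab2, Foxa2, Hnf4a, Apoe and Afp. All 10 were on the array, with 23 probe sets of the 22626 that are not controls, and count as 10 of 12393 genes with a symbol of their own. Brg1, encoded by Smarca4, uses ATP to move nucleosomes within SWI/SNF complexes, and the study is on Brd7 as a subunit of their PBAF form. The knockdown group was 2 arrays of R1 cells infected with lentivirus carrying an shRNA against Brg1. The control group was 2 arrays of R1 cells infected with lentivirus carrying an shRNA against the glucose transporter GLUT4. Both groups were harvested 67 h after infection, and per the labels each was infected in duplicate, so the error is that between 2 infections of 1 cell line. Neither uninfected cells nor differentiated endoderm cells were among the arrays.

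Primitive endoderm arises beside the epiblast in the late blastocyst, when FGF4 from epiblast precursors acts through FGF receptors and ERK. GATA6 is among its earliest regulators and opposes NANOG. PDGFRA, SOX17, GATA4 and SOX7 follow, and the layer then forms visceral endoderm, which secretes carriers such as AFP and apolipoproteins, and parietal endoderm, which lays down basement membrane. ES cells correspond to the epiblast, and in culture a minority of them can take on primitive endoderm expression.

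Promoter windows are shown for the members that rose, Apoe and Foxa2, and for Afp, a serum carrier gene at the bottom of the signal range. They come from RefSeq (GRCm38.p6), run from 250 bases before to 50 after an annotated transcript start, and are printed 5′ to 3′ on the gene's strand. Of the 10 members, Pdgfra, Dab2, Foxa2, Hnf4a, Apoe and Afp matched the table. Capitals mark words that GATA factors (AGATAA or AGATAG or TGATAA or TGATAG), FOX factors (TGTTTAC or TGTTTGC or TATTTAC or TATTTGC) and SOX factors (ACAAT or ACAAAG) can bind and the TATA word (TATAAA), on either strand. Of the 3 Apoe and 3 Foxa2 windows, those with a GATA, FOX or SOX word are given, with the single Afp window.
Apoe, chr7:19699139-19699438, minus strand: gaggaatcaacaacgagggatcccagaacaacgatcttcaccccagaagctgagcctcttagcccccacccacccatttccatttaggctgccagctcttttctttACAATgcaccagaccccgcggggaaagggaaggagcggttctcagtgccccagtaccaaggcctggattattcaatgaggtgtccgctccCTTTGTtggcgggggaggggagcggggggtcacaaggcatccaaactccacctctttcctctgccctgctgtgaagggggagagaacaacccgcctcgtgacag
Apoe, chr7:19698349-19698648, minus strand: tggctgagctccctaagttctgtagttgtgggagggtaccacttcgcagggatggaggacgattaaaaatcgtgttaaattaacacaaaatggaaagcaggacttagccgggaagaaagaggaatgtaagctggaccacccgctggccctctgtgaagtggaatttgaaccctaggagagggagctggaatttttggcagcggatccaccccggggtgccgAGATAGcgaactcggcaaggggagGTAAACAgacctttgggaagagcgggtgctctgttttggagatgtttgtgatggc
Foxa2, chr2:148045415-148045714, minus strand: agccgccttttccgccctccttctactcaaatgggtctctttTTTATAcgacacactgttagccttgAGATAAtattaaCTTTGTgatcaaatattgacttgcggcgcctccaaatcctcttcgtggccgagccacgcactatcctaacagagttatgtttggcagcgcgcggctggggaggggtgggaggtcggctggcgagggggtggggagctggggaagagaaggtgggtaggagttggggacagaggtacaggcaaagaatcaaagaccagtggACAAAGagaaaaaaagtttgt
Afp, chr5:90490464-90490763, plus strand: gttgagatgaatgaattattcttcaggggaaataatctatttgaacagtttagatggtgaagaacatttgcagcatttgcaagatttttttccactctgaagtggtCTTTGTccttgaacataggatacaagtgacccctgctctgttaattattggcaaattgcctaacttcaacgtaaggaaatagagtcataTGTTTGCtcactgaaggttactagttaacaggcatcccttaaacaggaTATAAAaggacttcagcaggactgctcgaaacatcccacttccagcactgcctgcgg
The first Apoe window held 2 SOX words, and the second held a GATA and a FOX word. The Foxa2 window held a GATA word, 2 SOX words and a TATA word, and the Afp window held a FOX, a SOX and a TATA word. Such words are common: of 32851 windows of this length, 29.8% held a GATA word, 13.5% a FOX word, 42.9% a SOX word and 13.6% the TATA word. A match describes the letters only.

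The values are probe set signals in array units, and the arrays shared 1 scale, with a trimmed mean of 200.07 each. Median signals were 46.6 and 48.2 in the control and 49.5 and 50 in the knockdown. Differences below are knockdown minus control of log2(signal + 20), a scale that understates changes of dim genes, and genes whose 4-array mean on that scale lay below the value for 23.9 signal units were not tested. Smarca4 fell from 1186.6 and 1213.6 to 652.1 and 621.5, so some of its RNA remained. Of 7815 tested genes, limma called 729 higher and 398 lower at an adjusted p under 0.05, and 622 and 598 with each array centred on its median. The hybridisation spike-ins had mean log2 signals of 9.44 and 9.15 (knockdown) and 9.67 and 9.57 (control), and with arrays scaled to them the tested genes' median difference went from 0.035 to 0.33. A direction here holds on the deposited scale. The ES cell identity of the arrays was clear: Pou5f1, which encodes OCT4, lay between 2367.4 and 2579.2, and 13 of 14 epiblast and ES cell markers reached the filter.

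Most of the primitive endoderm program gave little signal in either group. Of the 23 probe sets, 3 reached the filter, namely 1 each of Apoe, Foxa2 and Dab2, where 60% of all probe sets reached it by construction. Apoe and Foxa2 rose in the knockdown and Dab2 did not pass the test. Foxa2 reached the filter only through its knockdown arrays, and its call was lost when dim genes were tested too (limma, adjusted p = 0.06361). Over all 7815 tested genes, 9.33% were called higher and 5.09% lower (limma, adjusted p under 0.05). The other 7 genes lay below the filter with every probe set. The label primitive endoderm names the genes, and these signals do not show whether a minority of such cells was present. In RNA from whole cultures, fewer cells of a type and less RNA per cell cannot be told apart.

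**Figure D1:**
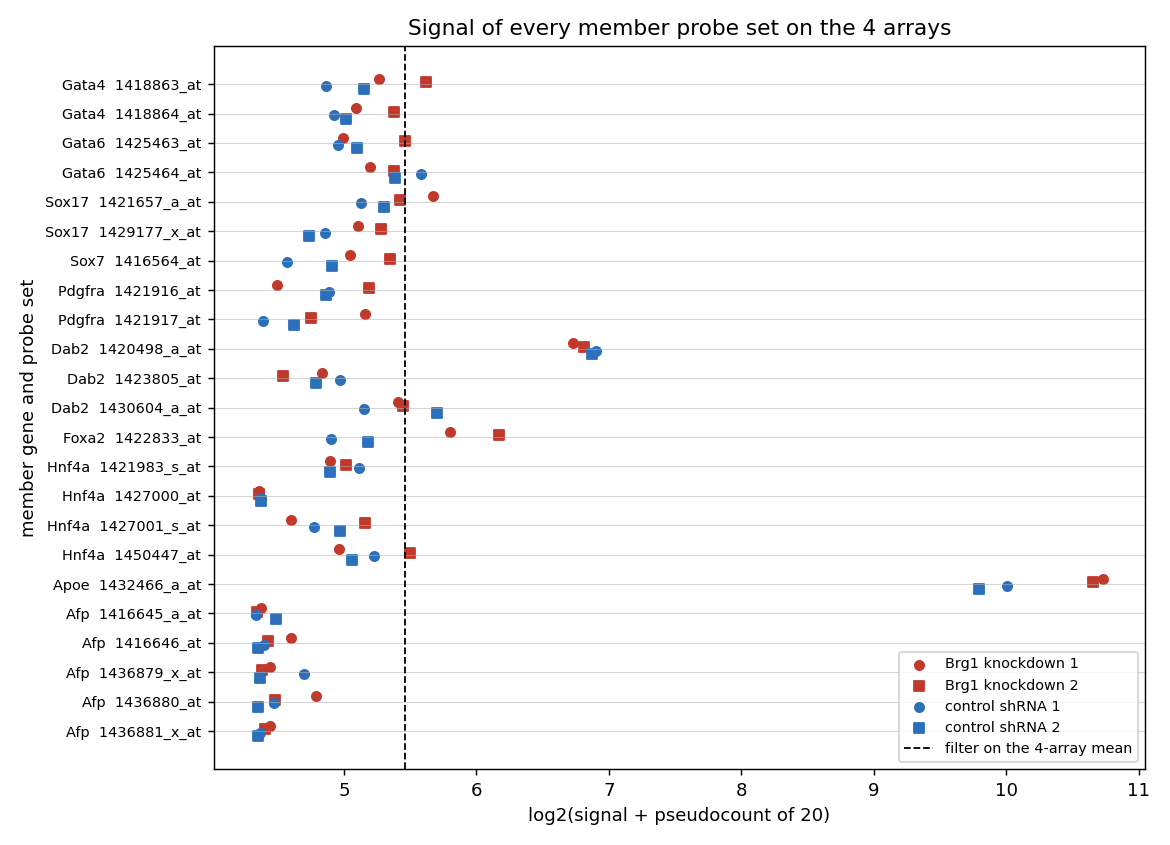
Signal of each of the 23 probe sets on the 4 arrays, as log2(signal + 20); red marks knockdown, blue control, circles replicate 1 and squares replicate 2. The dashed line is the filter on the 4-array mean of log2(signal + 20), placed at 23.9 signal units; Apoe, Foxa2 and 1 Dab2 probe set have means above it.

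Among the secreted proteins, Apoe was the bright member. It encodes apolipoprotein E, a carrier that delivers lipid to cells through receptors of the LDL receptor family. Its probe set (1432466_a_at, the 1 on the array) read 1677.1 and 1592.9 in the knockdown and 1009.6 and 869.3 in the control. Both knockdown arrays lay far above both control arrays, and the gap between the groups was larger than the spread within either. The means were 1635 ± 59.5 and 939.5 ± 99.2 (SD, n = 2 each). On the log2 scale Apoe was higher by 0.79 ± 0.09 (SE), or 1.73-fold, with an adjusted p of 0.0006283 in limma. Among the 729 rises it ranked 159th by size and 57th by p.

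Afp encodes alpha-fetoprotein, a serum carrier of visceral endoderm and fetal liver. Its 5 probe sets read between 0.2 and 7.6 on all 4 arrays. Their differences ran from -0.12 to 0.22, and 3 of the 5 had both knockdown arrays above both control arrays. At these signals an order of arrays is no evidence of expression.

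Foxa2 encodes a forkhead transcription factor that opens chromatin for endoderm genes and is active in visceral and definitive endoderm. Its probe set (1422833_at, the 1 on the array) read 35.7 and 51.9 in the knockdown and 9.9 and 16.3 in the control. The groups did not overlap, and the control arrays lay below the filter level. The means were 43.8 ± 11.5 and 13.1 ± 4.53 (SD, n = 2 each). On the log2 scale Foxa2 was higher by 0.94 ± 0.20 (SE), or 1.92-fold, with an adjusted p of 0.01393 in limma. The gene reached the filter through its knockdown arrays, so it could hardly be tested without differing. The size depended on the pseudocount, at 1.43 with 5 and 0.57 with 50 signal units. The call was lost without knockdown replicate 2 (limma, adjusted p = 0.05534), without control replicate 1 (0.06631) and when dim genes were tested too (0.06361).

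Dab2 encodes an adaptor that links receptors of the LDL receptor family to clathrin, and its loss disorders the primitive endoderm layer. Its brightest probe set (1420498_a_at) read 85.8 and 92.1 in the knockdown and 99.6 and 96.9 in the control. Both knockdown arrays lay slightly below both control arrays, an order that 27.8% of all tested probe sets showed. The log2 difference was -0.12 ± 0.13 (SE), with a 95% interval from -0.40 to 0.17 (limma, adjusted p = 0.5623). The interval leaves room for a modest fall or a small rise. Its other probe sets lay below the filter, with differences of -0.195 and -0.001 and overlapping groups. With the arrays scaled to the spike-ins the difference of Dab2 turned to 0.155 (adjusted p = 0.6069).

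**Figure D2:**
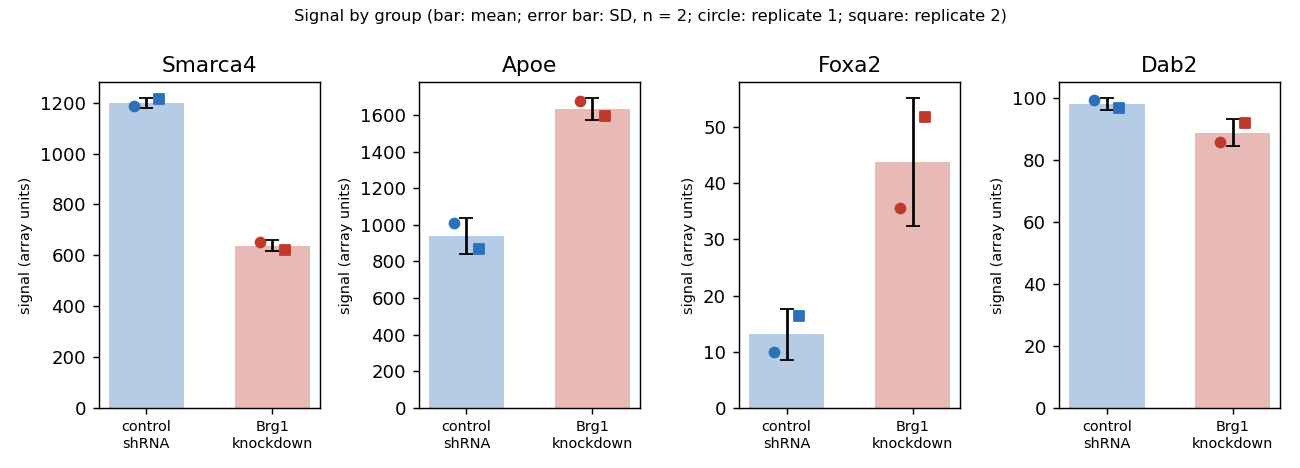
Signal in array units of Smarca4 and of the 3 members that reached the filter; bars are group means, error bars the SD of 2 arrays and points the arrays. Smarca4 is lower and Apoe and Foxa2 are higher in the knockdown, while the Dab2 groups lie within 85.8 to 99.6.

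The GATA factors stayed dim. Gata6, whose product specifies primitive endoderm, gave opposite signs with its probe sets. The brighter (1425464_at) read 16.7 and 21.6 in the knockdown against 28.0 and 21.7 in the control, a log2 difference of -0.195. The other (1425463_at) read 11.9 and 24.0 against 11.0 and 14.2, a difference of 0.20 with overlapping groups. No direction can be given for Gata6 from these values.

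Gata4, whose product acts after GATA6 and in heart and gut, was higher on the knockdown arrays with both probe sets. The brighter (1418863_at) read 18.5 and 29.1 against 9.1 and 15.6, a log2 difference of 0.43. The other (1418864_at) read 14.0 and 21.6 against 10.4 and 12.3, a difference of 0.26. Knockdown replicate 2 was the highest array with both.

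Sox17 and Sox7 encode SOX factors of the F subgroup, which turn on extraembryonic endoderm genes. For Sox17, 1421657_a_at read 31.1 and 22.8 in the knockdown and 14.9 and 19.4 in the control, a log2 difference of 0.33. The second Sox17 probe set (1429177_x_at, whose probes may match more than this transcript) read 14.4 and 18.8 against 9.0 and 6.7, a difference of 0.39. The groups did not overlap with either, but most arrays lay under the filter level. The single Sox7 probe set (1416564_at) read 13.1 and 20.8 against 3.7 and 10, a log2 difference of 0.46. That was the largest difference among the 20 probe sets below the filter.

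Pdgfra encodes the PDGF receptor alpha chain, a surface marker of primitive endoderm and of many mesenchymal cells. Its probe set 1421916_at read 2.5 and 16.5 in the knockdown, on either side of 9.6 and 9.1 in the control. The other (1421917_at) read 15.7 and 6.9 against 0.9 and 4.6, a log2 difference of 0.45. The knockdown arrays swapped order between the probe sets, so the receptor has no measured level here. Hnf4a, the nuclear receptor that drives apolipoprotein and other liver-type genes in visceral endoderm, read between 0.5 and 25.1 over its 4 probe sets. Its differences ran from -0.05 to 0.08.

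Across the 20 probe sets below the filter, 9 had both knockdown arrays above both control arrays, 2 had them below and 9 overlapped. Over all 9050 probe sets below the filter, 25.5% had the first order and 11.2% the second. The 9 came from 5 genes, 3 from Afp, 2 each from Gata4 and Sox17, and 1 each from Sox7 and Pdgfra, so they are not independent. The signals of the 20 summed to 210.3 and 268.6 in the knockdown and 173.7 and 192.5 in the control. Dim probe sets in general moved the same way, with medians of 7.2 and 8.2 in the knockdown and 6.5 and 5.8 in the control. The median difference was 0.075 for the 20 and 0.055 for all 9050. When dim genes were tested too, none of the 7 genes passed (limma, adjusted p from 0.2245 to 0.9541).

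**Figure D3:**
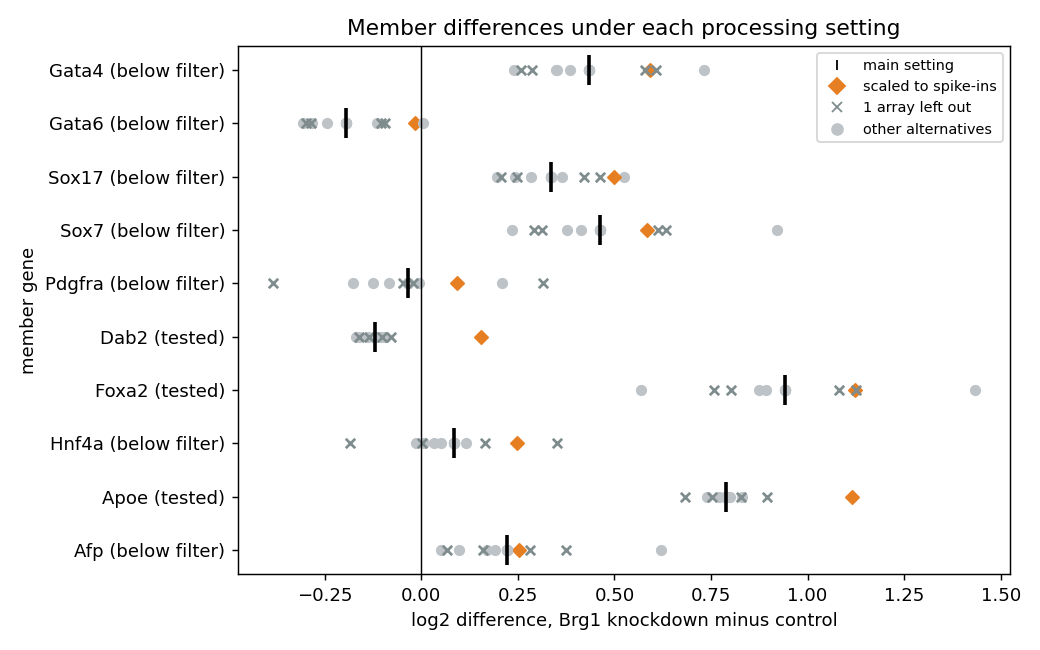
Log2 difference (knockdown minus control) of each of the 10 genes under the main setting (bar) and each alternative; diamonds mark scaling to the spike-ins and crosses the loss of 1 array. Apoe stays between 0.68 and 1.11 and Foxa2 between 0.57 and 1.43, while Gata6, Pdgfra, Dab2 and Hnf4a have values on both sides of 0.

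The genes most like the risen members over the 4 arrays were taken as those with the smallest root mean square distance of centred log2 values. For Apoe these were Id2 (0.034), Plk2 and Sat1 (0.038 each), with log2 differences of 0.78, 0.86 and 0.76. For Foxa2 they were Gsn (0.044), Ncoa3 (0.064) and Steap1 (0.072), with differences of 0.96, 1.05 and 0.88. With 4 arrays in 2 groups, such likeness says little beyond a similar difference.

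Neighbouring genes were read from the order of protein-coding genes in RefSeq. Apoe lies in a cluster with Apoc1 and Apoc4, other apolipoprotein genes. Of the 3 genes on either side, 5 were on the array and 4 reached the filter, and none of them passed the test. Apoc1 read 95.4 and 134.5 in the knockdown and 109.8 and 78.4 in the control, a log2 difference of 0.24 (limma, adjusted p = 0.3978). Tomm40, the neighbour on the other side, gave -0.15 (adjusted p = 0.231). None of the 6 neighbours of Foxa2 reached the filter. Of the Dab2 neighbours, Ttc33 and Ptger4 did, and Ptger4, a prostaglandin receptor gene, rose by 0.55 (adjusted p = 0.03833). That call was lost without knockdown replicate 2 (0.1885), control replicate 1 (0.1153) or control replicate 2 (0.07649).

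Abca1, Pltp and Lcat, genes of lipoprotein transport, rose as Apoe did. Of 13 genes on the array for lipoprotein receptors, transporters and the sterol receptor LXR, 8 were tested, and 3 rose, 1 fell and 4 did not pass, where 9.33% of all tested genes rose and 5.09% fell. The list had a median difference of 0.39 among those tested, against 0.035 over all tested genes. This list and those below were chosen with earlier results of these data known, so their shares and medians only describe them. Abca1, which exports cholesterol to apolipoproteins, read 326.0 and 326.5 in the knockdown and 126.9 and 129.9 in the control, which is 1.22 ± 0.10 (SE) in log2 units (limma, adjusted p = 0.000192). Pltp, which moves phospholipid between lipoproteins, read 472.9 and 412.7 against 177.9 and 222.9, a difference of 1.07 ± 0.12 (adjusted p = 0.0007741). Their groups were widely separated, and a second tested probe set of each also rose, by 1.00 and 1.25. Abca1, Pltp and Apoe are all known as LXR targets, but a part of LXR in these rises was not tested. Lcat, which esterifies cholesterol in lipoproteins, rose by 0.81 ± 0.15 (adjusted p = 0.007929), a call lost when dim genes were tested too (0.05092). Abcg1, another LXR target, gave 0.15 (adjusted p = 0.5066), and the LXR alpha gene Nr1h3 read 17.6 and 16.7 against 3.7 and 10.3, below the filter. Lrp2, the endocytic receptor megalin, fell by 0.39 ± 0.10 (adjusted p = 0.03184), and it was the 1 of 11 tested DAB2 endocytic partners that passed. Its call was lost without each array in turn, with adjusted p from 0.06114 to 0.1037, and its second probe set gave -0.37 (limma, adjusted p = 0.1093).

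Of the PDGF ligand genes, Pdgfa and Pdgfc rose, Pdgfb did not pass, and Pdgfd lay below the filter at 0.3 to 2.7. Pdgfa, the main ligand of PDGFRA in the early embryo, read 177.3 and 156.2 in the knockdown and 44.7 and 57.8 in the control, which is 1.39 ± 0.14 (SE) in log2 units (limma, adjusted p = 0.0004204). The groups were far apart, and a second probe set also rose, by 0.80. Pdgfc rose by 0.46 ± 0.10 (adjusted p = 0.01654), with a second probe set also at 0.46 that did not pass (adjusted p = 0.05222). Pdgfb gave 0.55 (adjusted p = 0.06179) and Kit, a related receptor, -0.25 (adjusted p = 0.3255). Of the 4 tested genes of this list, 2 rose, 0 fell and 2 did not pass, where 9.33% of all tested genes rose and 5.09% fell.

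Of 17 tested genes of the FGF and ERK pathway, which drives primitive endoderm fate, 4 rose, 0 fell and 13 did not pass, with a median of 0.16. Over all tested genes, 9.33% rose and 5.09% fell. Fgf4, the ligand, rose by 0.52 ± 0.10 (SE; limma, adjusted p = 0.008537) and Dusp6, an ERK phosphatase, by 0.62 ± 0.08 (adjusted p = 0.00134). With the mean of all its probe sets Fgf4 did not pass (0.07602), and its other probe sets gave 0.51 (adjusted p = 0.01399), 0.35 (0.1902) and, below the filter, -0.12. The receptor gene Fgfr2 read 67.7 and 125.2 against 40.4 and 46.0, a difference of 0.84 ± 0.22 (adjusted p = 0.03255). Knockdown replicate 2 set much of it, and the call was lost without that array (0.474 on the log2 scale, adjusted p = 0.1483) or control replicate 1 (0.05718). Fgfr1 rose by 0.46 ± 0.10 (adjusted p = 0.01727), a call lost without knockdown replicate 1 (0.05649) or control replicate 1 (0.06267). The second probe sets of Fgfr2 and Fgfr1 gave less, 0.30 (limma, adjusted p = 0.2954) and 0.29 (0.2621), and did not pass.

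Basement membrane and parietal endoderm genes were split. Of 15 tested, 2 rose, 3 fell and 10 did not pass, with a median of -0.06, where 9.33% of all tested genes rose and 5.09% fell. Fn1, which encodes fibronectin, fell from 1544.4 and 1475.2 to 881.4 and 968.2, which is -0.70 ± 0.08 (SE) in log2 units (limma, adjusted p = 0.0007741). Serpinh1, a collagen chaperone, and the laminin chain gene Lama1 fell by 0.53 and 0.55, and Plod2, a collagen lysyl hydroxylase, and Sparc, a matrix glycoprotein chosen after its values were seen, rose by 0.40 and 0.43. Those 4 calls were each lost when some single array was left out. The adjusted p of Serpinh1 was then 0.07565 (knockdown replicate 2 left out) or 0.08128 (control replicate 2), and that of Lama1 0.06401 (knockdown replicate 1) or 0.09685 (control replicate 2). For Plod2 it was 0.1086 (knockdown replicate 2) or 0.09708 (control replicate 1), and for Sparc 0.2128 and 0.1867 with the same arrays left out. Second probe sets of Serpinh1 (-0.32), Plod2 (0.30) and Sparc (0.285) did not pass (limma, adjusted p = 0.2955, 0.09779 and 0.1168), while that of Fn1 fell by 1.13 (0.01005). Fn1, Serpinh1 and Lama1 stayed below 0 with the spike-in scaling but did not pass there (adjusted p = 0.1795, 0.433 and 0.3469).

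Most visceral endoderm genes were dim. Of 23 on the array, 19 lay below the filter, among them Ttr, the transthyretin gene, at 1.4 to 2.7 and Apoa1 at 1.2 to 1.9. Of the 4 tested, 0 rose, 2 fell and 2 did not pass, where 9.33% of all tested genes rose and 5.09% fell. Besides Lrp2 the fall was Spink1, a secreted protease inhibitor, by 0.45 ± 0.10 (SE) in log2 units (limma, adjusted p = 0.02144). That call was lost without knockdown replicate 2 (0.062) or control replicate 2 (0.08706). With the spike-in scaling neither Lrp2 nor Spink1 passed (adjusted p = 0.7982 and 0.6433). Among 7 tested genes listed as other endoderm transcription factors, 1 rose, none fell and 6 did not pass. Those 6 were Foxa3, Hhex, Sall4, Eomes, Prdm1 and Zfpm1. The rise was Sox18, the third gene of the SOX F subgroup, which is not taken here as a marker of endoderm. Sox18 read 101.8 and 125.5 in the knockdown and 51.2 and 75.7 in the control. The groups did not overlap and the difference was 0.69 ± 0.17 (SE; limma, adjusted p = 0.02764), lost without knockdown replicate 2 (0.102) or control replicate 1 (0.121).

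**Figure D4:**
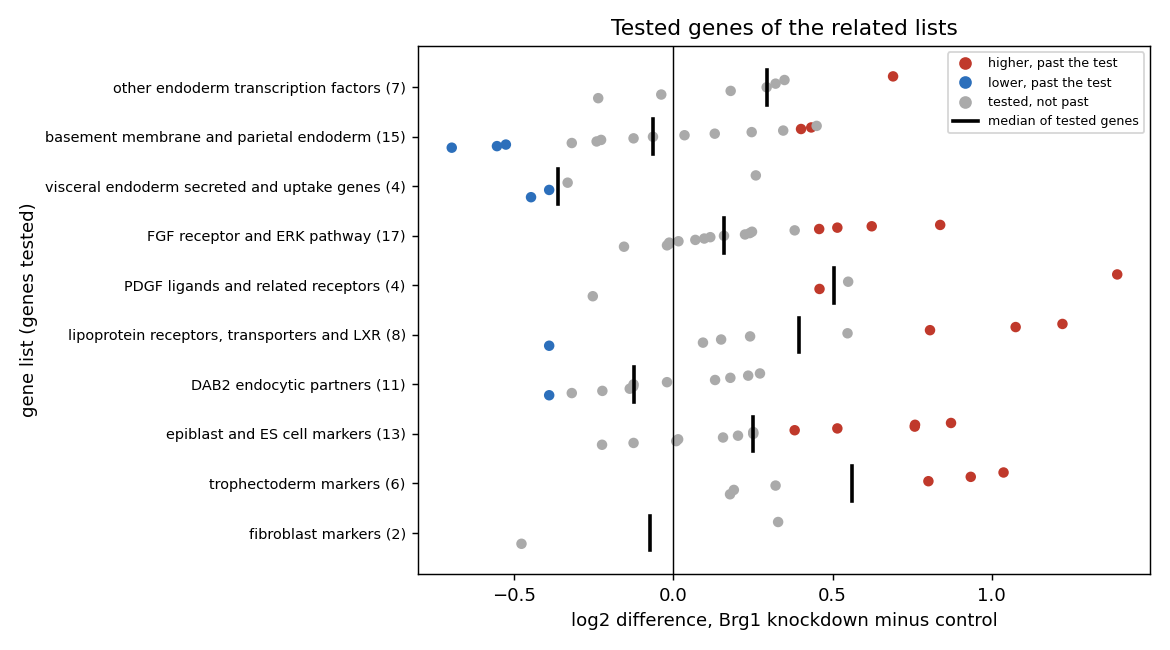
Log2 difference (knockdown minus control) of the tested genes of each related list; red and blue mark genes past the test and black bars the median. Pdgfa (1.39), Abca1 (1.22) and Pltp (1.07) lie farthest to the right and Fn1 (-0.70) farthest to the left.

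Markers of other cell types were read beside these rises, with 9.33% of all tested genes higher and 5.09% lower. Of 13 tested epiblast and ES cell markers, 5 rose, 0 fell and 8 did not pass, with Nanog at 0.87, Klf4 and Klf2 at 0.76 each, Fgf4 at 0.52 and Esrrb, chosen after its values were seen, at 0.38. A second Esrrb probe set gave -0.04, and Esrrb no longer passed when knockdown replicate 2 or control replicate 1 was left out (limma, adjusted p = 0.06225 and 0.05588). Of the 8 that did not pass, Sox2 gave -0.22, Tdgf1 -0.125, Pou5f1 0.009 and Dppa3 0.015. Klf5, Zfp42, Utf1 and Dppa4 gave 0.16 to 0.25. The list summed to 18383.0 and 18096.8 signal units in the knockdown and 15188.3 and 16179.0 in the control. Klf2 alone read 2092.7 and 2030.7 in the knockdown and 1103.6 and 1327.6 in the control, so the sum does not describe every marker. Of 12 trophectoderm markers, 6 were tested, and 3 rose, 0 fell and 3 did not pass. Krt8, Tfap2c and Hand1 rose by 1.04, 0.93 and 0.80. The list summed to 1523.1 and 1631.0 against 969.3 and 1015.9, of which Krt8 alone gave 690.0 and 785.1 against 326.1 and 372.2. Below the filter, Tead4 (4.1 and 3.9 against 14.0 and 15.9) and Ascl2 (8.0 and 5.8 against 15.3 and 12.0) were lower on both knockdown arrays. Cdx2, Krt7 and Elf5 were higher on both, and Gata3 read 1.2 to 2.2. Hand1 read 43.8 and 57.0 in the knockdown and 18.9 and 21.6 in the control, so like Foxa2 it reached the filter through its knockdown arrays. It no longer passed when knockdown replicate 2 or control replicate 1 was left out (limma, adjusted p = 0.06525 and 0.06518). When dim genes were tested too, Tfap2c (0.05649) and Hand1 (0.06755) lost their calls, though the other probe sets of Tfap2c also rose, by 1.04 and 0.70. The part of trophectoderm-type expression in the rises of Apoe and Foxa2 was not tested. Of 14 fibroblast markers 2 reached the filter and neither passed, with sums of 265.0 and 282.6 against 251.9 and 249.5 and Col1a1 at 5.9 to 16.0. None of 11 liver and gut endoderm markers reached the filter, and the albumin gene Alb read 10.3 to 17.9. Of the genes named here, 14 in all lost their call when dim genes were tested too (limma, adjusted p from 0.05092 to 0.1349), namely Foxa2, Lcat, Lrp2, Fgfr1, Fgfr2, Serpinh1, Lama1, Plod2, Sparc, Spink1, Sox18, Tfap2c, Hand1 and Ptger4.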

How the data were processed

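RNA of 4 cultures was read on 1 Affymetrix array each, 2 per group. The deposited values are linear signal intensities, 1 for each probe set on each array, made with GCOS per the submitters' processing notes. The GCOS version, algorithm and scaling are not stated in the sources used here, and no detection calls were used. Of 22690 probe sets, 64 were controls, 20380 had 1 gene, 691 several and 1555 none. Symbols were updated by Entrez ID through RefSeq (20351 matched). Signals were analysed as log2(signal + 20.0). A gene's value was its probe set of highest mean, _x_at only without another, tested at or above the 40th percentile (7815 genes; 13576 probe sets for fits by probe set). Groups were compared with limma 3.58.1 (R 4.3.3, lmFit, eBayes with intensity trend, two-sided), with Benjamini-Hochberg adjustment over all tested genes. Adjusted p-values come from this fit unless an alternative is named. The number of arrays limits precision. In simulated data with variances drawn from the fitted model, 100 genes of 7815 were changed by 0.5 log2 units and 100 by 1.0. Of these, 35% and 92% were recovered. A gene that did not pass may thus still have changed by about 0.5. The real fit called 1127 genes, more than were changed in the simulation, so these shares need not hold for it. Genes named by rule are all members, the shRNA targets, the genes nearest in pattern to each risen member, and up to 4 genes past the test per list. Others named in the text lie outside that rule, such as chromosome neighbours, list genes that did not pass, genes below the filter, Sparc and Esrrb. The genes and lists were chosen with earlier results of these data known. Alternatives changed the pseudocount, filter, scaling, variance model, probe set rule, threshold and replicate block, and left out each array. Slc2a4, which encodes GLUT4, was below the filter, at 20.9 and 23.9 in the knockdown and 11.7 and 19.2 in the control.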

Additional observations from a re-analysis of the deposited data

How the results depend on the processing

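Apoe kept its direction and its call under all 16 alternatives, with log2 differences from 0.68 to 1.11. Foxa2 stayed above 0 in the 15 alternatives that tested it, lost its call in 4 of them, and fell below the filter at the 60th percentile. The difference of Dab2 reversed to 0.155 with the spike-in scaling and passed under no setting. Without the intensity trend, Sox18, Plod2, Lrp2, Fgfr1, Fgfr2, Sparc and Esrrb lost their calls (limma, adjusted p from 0.05107 to 0.1212). With the mean of all probe sets of a gene, Fgfr1 (limma, adjusted p = 0.05936), Sparc (0.05215) and Esrrb (0.2343) lost theirs, as did Fgf4. The number of members called, 2 by gene and 2 by probe set, became 1 by either without the filter, with the filter at the 60th percentile and at an adjusted p under 0.01, and ranged from 1 to 2 when arrays were left out. Over all genes, the 1127 calls became 433 without the filter and 393 at an adjusted p under 0.01, and ranged from 601 to 1171 when arrays were left out, with 601 without knockdown replicate 2 and 719 without control replicate 1. Over all probe sets, the 1240 calls became 452 without the filter, 337 at an adjusted p under 0.01, 747 without the intensity trend and 2198 with the spike-in scaling, and ranged from 551 to 1693 when arrays were left out. Of the gene calls with the spike-in scaling, 1409 were higher and 30 lower. Same-numbered arrays deviated weakly in opposite directions (r = -0.136 across 7815 genes, which are not independent). With 2 arrays per group this cannot show whether the numbers mark shared handling. The 3′ to 5′ signal ratio of the actin control probe sets was 1.36 (knockdown) and 1.365 (control) for replicate 1. For replicate 2 it was 1.308 and 1.307. That of Gapdh was 0.834 and 0.843 for replicate 1, and 0.827 and 0.845 for replicate 2. With the replicate block, 1187 genes and 1507 probe sets passed, and with crossed pairing, added after seeing the data, 1478 and 2058; the block changed no member's call. The causes were not tested. With 1 array left out, its group's single array is assumed to vary like the other group. With 2 arrays per group, signals near the floor cannot show whether Gata4, Gata6, Sox17, Sox7, Pdgfra, Hnf4a or Afp differed.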

Other observations

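Of 30 genes of the 3 endoderm lists below the filter, 9 had both knockdown arrays above both control arrays, 2 had them below and 19 overlapped. Over all probe sets below the filter the shares were 25.5% above and 11.2% below. The examples that follow, among them genes near Foxa2 and Dab2, were chosen after their values were seen. With 2 arrays against 2 an exact permutation test cannot go below p = 0.333. Cited1, a transcriptional coregulator, read 47.2 and 39.4 in the knockdown and 7.8 and 5.4 in the control. Gata5, another GATA factor of endoderm and heart, read 9.5 and 14.1 against 2.6 and 0.6. The homeobox gene Nkx2-4, which lies near Foxa2, read 23.4 and 22.9 against 4.3 and 1.8. Between it and Foxa2, Nkx2-2 and Pax1 gave log2 differences of 0.195 and -0.009, also below the filter. C9, the gene beside Dab2, read 14.0 and 14.0 against 0.5 and 1.5. Fst, which encodes the activin antagonist follistatin, read 27.1 and 25.2 against 14.6 and 10.9. In the other direction Ihh, which encodes the Indian hedgehog ligand, read 4.4 and 2.7 against 11.6 and 6.7, and Apoa2, an apolipoprotein gene, 13.9 and 7.7 against 19.1 and 15.9. When dim genes were tested too, Cited1 (limma, adjusted p = 0.01908), Nkx2-4 (0.03203) and C9 (0.04571) were higher past the threshold. Gata5 (limma, adjusted p = 0.09655), Fst (0.1448), Ihh (0.2921) and Apoa2 (0.3865) did not pass. Cited1 was the 1 of the 30 list genes that passed there.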
